A study of Homo sapiens with 6 samples.

Results

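The genes that encode the proteins of the mitochondrial ribosome were followed in BT-549 cells, an established human triple-negative breast cancer line, with and without silencing of IRF1, a transcription factor of the interferon response. Members were chosen by symbol alone, as every listed gene named MRPL or MRPS followed by a number and at most 1 letter. This gave 78 genes, 49 named MRPL and 29 named MRPS, of 37887 symbols in the count table. By the current structural assignment, 26 encode proteins of the small subunit, 51 encode proteins of the large subunit, and MRPS36 is now placed in the α-ketoglutarate dehydrogenase complex and not in the ribosome. Of the large subunit genes, MRPS30 and MRPS18A carry small subunit symbols for historical reasons.

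The mitochondrial ribosome translates the few messages of mitochondrial DNA, which encode core subunits of the respiratory chain and the ATP synthase. Its ribosomal RNAs are made inside the organelle, whereas all of its proteins are encoded in the nucleus, made in the cytosol and imported. Part of them have counterparts in the bacterial ribosome, and the others occur only in mitochondria. Promoters of this family are typically housekeeping promoters, and the factors GABP (a heterodimer of GABPA and GABPB1), YY1 and NRF1 are known to act on many nuclear genes for mitochondrial proteins.

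Bulk RNA sequencing covered 3 control samples, which received 0.1% DMSO, and 3 IRF1shRNA samples, which received 500 ng/ml doxycycline to induce an shRNA against IRF1. Cells were cultured in triplicate, and the sources used here do not say more on how independent the cultures were, so p-values measure the spread between these samples. The titles of the control samples name a control shRNA, whereas the series design names a single line with an inducible IRF1 shRNA that was given vehicle or doxycycline. Doxycycline is known to inhibit translation by the mitochondrial ribosome, and no control sample received it, so the effects of the drug and of the shRNA cannot be told apart in any result.

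Total counts were between 124253348 and 152874959 in the control samples and were 123528129, 55143808 and 160436234 in the IRF1shRNA samples. IRF1 itself was at 45.3, 48.1 and 51.5 CPM (counts relative to the TMM-scaled library total) in the control samples and at 13.8, 14.9 and 14.6 CPM in the IRF1shRNA samples. Its log2 fold change was −1.74 ± 0.062 (SE, n = 3 per group, adjusted p = 4.53e-13), and the groups did not overlap. VIM, FN1 and CD44, which mark this mesenchymal-like line, were between 574 and 1582 CPM in every sample and were themselves lower in the IRF1shRNA samples, with log2 fold changes of −0.56 ± 0.048 for VIM (adjusted p = 3.1e-08), −0.34 ± 0.045 for FN1 (adjusted p = 5.45e-06) and −0.27 ± 0.043 for CD44 (adjusted p = 4.07e-05). Their part in the results was not tested. The hormone receptors ESR1 and PGR, the leukocyte gene PTPRC, the endothelial gene PECAM1 and the hepatocyte gene ALB were at most 0.757 CPM, with ALB called higher at 0.0649, 0.049 and 0.0939 CPM in the control and 0.444, 0.144 and 0.431 CPM in the IRF1shRNA samples (log2 fold change 2.34 ± 0.45, adjusted p = 0.00032).

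The promoter stretches to which the results below refer are shown first. RefSeq windows of 250 bases before and 50 bases after the start of transcription (GRCh38.p14) were at hand for 69 of the 78 members, with 85 windows in all. Each sequence runs 5′ to 3′ on the strand of the gene, positions are counted from the start site, and capitals mark the searched letters or their reverse complement. The letters were CCGGAAG for GABP and other ETS factors, AAGATGG for YY1, GCGCATGCGC for NRF1, and GAAANNGAAA for the interferon-stimulated response element, the kind of site that IRF factors bind. No matches of different factors overlapped in the windows. A match is a match of letters and not a bound site. The first set holds the member with the largest increase, MRPL52, at chr14:22829821-22829891 (positions −66 to 5) and chr14:22829780-22829804 (−107 to −83), both on the plus strand. The upstream stretch lies in the first exon of the divergent gene SLC7A7.

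MRPL52 near the start, YY1 and GABP letters: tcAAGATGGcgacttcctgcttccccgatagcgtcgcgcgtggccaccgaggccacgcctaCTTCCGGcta

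MRPL52 upstream, YY1 letters: cgatgacccAAGATGGcggagccgt

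The second set holds the members that had the interferon response letters and passed the test, since IRF1 was the silenced factor. They are MRPL36 at chr5:1799896-1800087 (−250 to −59) and MRPL50 at chr9:101398619-101398718 (−100 to −1), both on the minus strand, and a YY1 match of MRPL36 lies at chr5:1799856-1799880 (−43 to −19).

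MRPL36, interferon response letters: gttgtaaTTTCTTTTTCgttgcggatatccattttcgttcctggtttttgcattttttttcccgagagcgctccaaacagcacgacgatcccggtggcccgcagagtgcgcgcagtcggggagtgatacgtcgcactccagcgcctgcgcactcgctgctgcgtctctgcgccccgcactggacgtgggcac

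MRPL36, YY1 letters: cccccgccgCCATCTTccttcctgg

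MRPL50, interferon response letters: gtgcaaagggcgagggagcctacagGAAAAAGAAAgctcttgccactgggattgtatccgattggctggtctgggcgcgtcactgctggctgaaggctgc

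The third set shows that like letters occurred in the windows of genes that rose and of genes that fell. Its genes are among the largest increases and decreases and do not give the balance over all members with these letters, which follows below. MRPL48 (chr11:73787802-73787826, plus strand) and MRPS24 (chr7:43869483-43869507, minus strand) were higher in the IRF1shRNA samples, whereas MRPL43 (chr10:100987500-100987524, minus strand), MRPL30 (chr2:99181030-99181054, plus strand) and MRPS30 (chr5:44808951-44808975, plus strand) were lower. In MRPS24 and MRPS30 the letters follow the start of transcription, at positions 20 and 14, and take in the annotated start codon.

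MRPL48, GABP letters: tttcagaagCTTCCGGaactaaaat

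MRPL43, GABP letters: gtcccggaaCCGGAAGcctcgaggt

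MRPL30, GABP letters: tctgctgcgCTTCCGGgaagtggtc

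MRPS24, YY1 letters: gcttggcccAAGATGGcggcctccg

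MRPS30, YY1 letters: tcgcgggcaAAGATGGcggcggcca

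The family as a whole was expressed in these cells. All members but MRPL53 passed the filter on low counts, which left 77 members among 18851 genes tested. MRPL53 had 2 counts in 1 IRF1shRNA sample and none in the other samples, below the 3 counts taken as detected, which amount to 0.0187 to 0.0544 CPM. Per kilobase of exon, which allows genes to be set side by side, the control means of the tested members ran from 0.43 to 107 CPM per kb, with a median of 16.3. Highest were MRPL15 (107 CPM per kb), MRPL37 (92.7) and MRPL51 (89.2), whose proteins belong to the large subunit, and lowest were MRPL46 (0.43), MRPL38 (0.463) and MRPS24 (0.814).

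The MRP genes moved in both directions and by small amounts after IRF1 silencing. With edgeR's quasi-likelihood test and p-values adjusted after Benjamini and Hochberg over all genes, 25 members were higher in the IRF1shRNA samples, 16 were lower and 36 were not called at an adjusted p under 0.05. Among all genes tested, 50.5% were called, 24.1% as higher and 26.4% as lower, and of the members 53.3% were called, 32.5% as higher and 20.8% as lower. The median log2 fold change of the members was 0.055, against −0.0024 for all genes. The median size of the change, regardless of sign, was 0.13 on the log2 scale for the members and 0.28 for all genes. Only MRPL52 and MRPS24 changed by over 1.5-fold, 2.6% of the members tested, where 17.7% of all genes did. Since RNA was measured in bulk, a change in the share of cells with a transcript and a change in its amount per cell cannot be told apart. The balance of directions depended on the scaling. The split was 29 higher and 10 lower with library size as the sole scaling, where 50.8% of all genes were called, 27.9% as higher and 22.9% as lower. It was 38 higher and 12 lower after a correction for GC content and length, where 55.1% of all genes were called, 31.7% as higher and 23.3% as lower. In these fits the median of all genes moved to 0.049 and 0.071 on the log2 scale, and the median of the members lay above it by 0.057 and 0.051, against 0.057 in the TMM fit. Without control replicate 2, 21 members were higher and 10 lower, where 20.2% of all genes were higher and 22.7% lower. Without control replicate 1 the median of the members was 0.013 and that of all genes was 0.009. The members lay above all genes by 0.0037 in that fit, by 0.034 in DESeq2 and by 0.082 without IRF1shRNA replicate 3. The size of this excess thus depended on the samples and the fit.

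**Figure D1:**
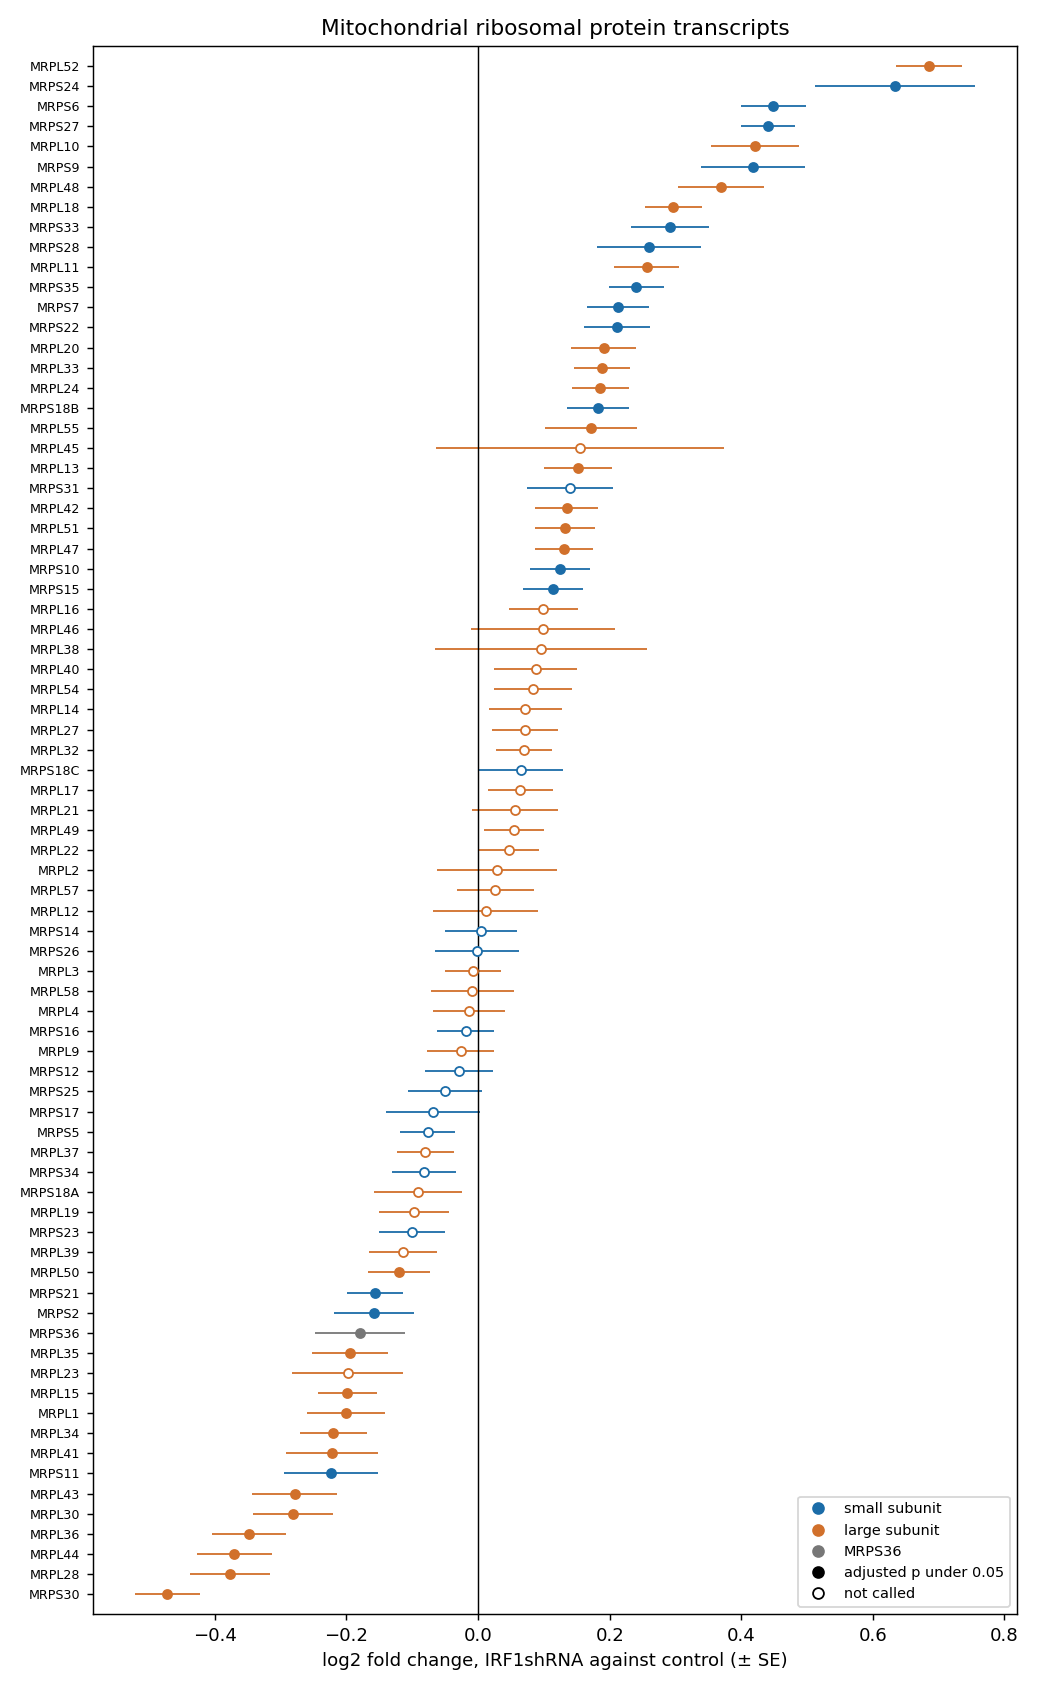
Each point is the log2 fold change of 1 of 77 members between the 3 IRF1shRNA and the 3 control samples (x axis, bars ± SE), ordered by size and coloured by ribosomal subunit, with filled points at an adjusted p under 0.05. Values run from −0.47 for MRPS30 to 0.69 for MRPL52, and 36 points are open.

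The comparison was repeated among genes of like abundance. Among the 7892 genes with means over all samples between 7.5 and 120 CPM, 30.02% were higher and 36.5% were lower, with a median log2 fold change of −0.029 and a median size of 0.23. Of the 69 members in that range, 21 were higher and 16 were lower, with a median of 0.029 and a median size of 0.14. The groups of samples did not overlap for 41 of the 77 members, against 56.8% of all genes tested (27.3% with the IRF1shRNA samples above and 29.5% with them below the controls). Of the members that were called, 24 of 25 that rose and 13 of 16 that fell had groups that did not overlap, against 95.8% and 97.5% of all genes called higher and lower. Those that were called and did overlap were MRPL55 among the increases and MRPL41, MRPS36 and MRPS2 among the decreases.

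**Figure D2:**
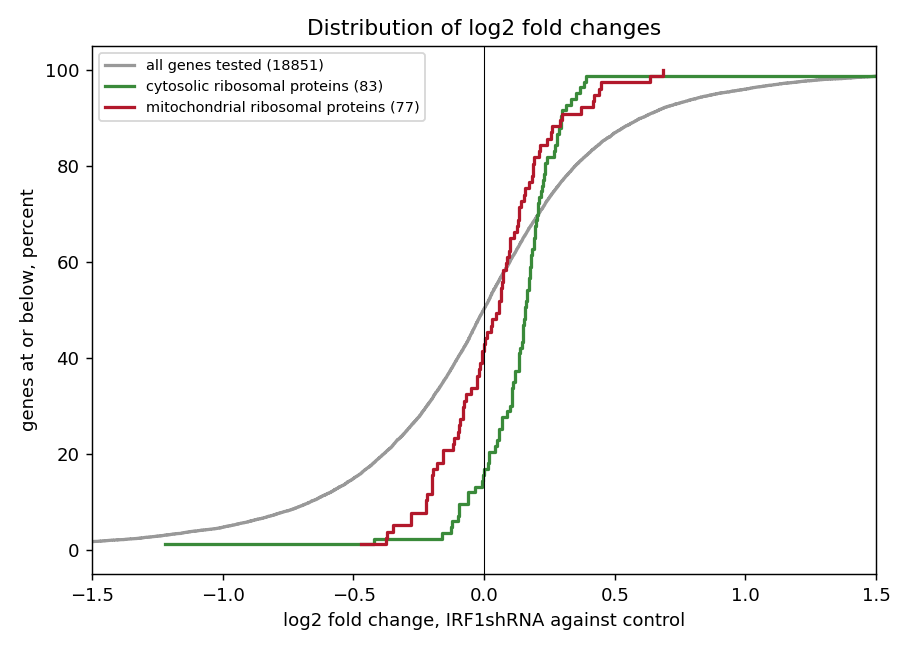
The share of genes (y axis, percent) at or below each log2 fold change (x axis, IRF1shRNA against control, cut at ±1.5) is drawn for all 18851 genes tested, 83 cytosolic ribosomal protein genes and 77 mitochondrial ones. The mitochondrial line is steeper than that of all genes and crosses 50 percent at 0.055, and the cytosolic line crosses it at 0.16.

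Summed over the family, the messages made up 3956, 4072 and 4133 CPM in the control samples and 4251, 4187 and 4033 CPM in the IRF1shRNA samples, so the groups overlapped. The sum over the small subunit genes was 1281, 1302 and 1333 CPM in the control samples and 1414, 1408 and 1358 CPM in the IRF1shRNA samples, without overlap. Large subunit genes summed to 2651, 2744 and 2774 CPM in the control samples and 2816, 2754 and 2654 CPM in the IRF1shRNA samples, with overlap. As a share of all counts with no scaling, the family held 0.398% ± 0.0054 in the control and 0.423% ± 0.01 in the IRF1shRNA samples (SD, n = 3). These shares did not overlap, at 0.3924% to 0.4031% in the control and 0.4138% to 0.4336% in the IRF1shRNA samples. Large subunit shares did not overlap either, at 0.2629% to 0.2706% in the control and 0.2723% to 0.2872% in the IRF1shRNA samples. The overlap of the family and large subunit sums thus depended on the scaling, whereas the small subunit was apart with and without it. Sums weigh abundant genes most. MRPS27 alone rose from a mean of 135 to 184 CPM, beside 1305 to 1393 CPM for the small subunit sum. The gap in that sum is therefore no measure of a shift across the subunit. The genes of the cytosolic ribosome, given for comparison, summed to between 41104 and 44566 CPM in the control and between 45921 and 48627 CPM in the IRF1shRNA samples. Of 83 such genes tested, 49 were higher and 3 lower, with a median log2 fold change of 0.16. These shares were 59% and 3.6%, against 24.1% and 26.4% of all genes tested.

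The small subunit binds the message and holds the decoding centre. Of its 26 genes, 12 were higher, 3 were lower and 11 were not called, and the median log2 fold change was 0.089. Thus 46.2% were higher and 11.5% lower, against 24.1% and 26.4% of all genes tested. As sorted here, those with a bacterial counterpart numbered 17, with 8 higher and 3 lower. The 9 that occur only in mitochondria gave 4 higher and 0 lower, with 0 lower also at an unadjusted p under 0.05 in edgeR and 0 in DESeq2. The sorting is uneven for the MRPS18 paralogues. MRPS18B, called higher, was counted among the 17, whereas MRPS18A was counted in the large subunit as occurring only in mitochondria. In the large subunit, which holds the peptidyl transferase centre and the exit tunnel, 13 of 50 tested genes were higher, 12 were lower and 25 were not called, with a median of 0.051, and its shares of 26% higher and 24% lower were close to those of all genes. Its 30 conserved genes gave 9 higher and 7 lower, and the 20 tested genes that occur only in mitochondria gave 4 higher and 5 lower. Without IRF1shRNA replicate 1, 8 large subunit genes were higher, and without control replicate 2 or IRF1shRNA replicate 2, 1 small subunit gene was lower. Whether the subunits differed was not tested.

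MRPS24, MRPS6, MRPS27 and MRPS9 were the small subunit genes with the largest increases. MRPS27, which encodes a pentatricopeptide repeat protein of the mitochondrial small subunit, was at 137, 134 and 135 CPM in the control samples and at 178, 189 and 185 CPM in the IRF1shRNA samples. Every IRF1shRNA sample lay above every control sample, and the mean was 35.8% higher (log2 fold change 0.44 ± 0.041, adjusted p = 9.76e-08). MRPS6, the counterpart of bacterial S6, was at 30.7, 30.3 and 31.2 CPM without and 42.7, 42.5 and 40.6 CPM with silencing. The groups were well apart, with a log2 fold change of 0.45 ± 0.05 (adjusted p = 7.38e-07). MRPS9, the counterpart of bacterial S9, was at 7.71, 7.97 and 7.97 CPM in the controls and at 11.3, 10.8 and 9.5 CPM in the IRF1shRNA samples. It was higher by 0.42 ± 0.079 on the log2 scale (adjusted p = 0.00026), with no overlap.

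MRPS24, the counterpart of bacterial S3 at the entry of the message channel, was at 2.17, 2.07 and 2.15 CPM in the control samples and at 3.63, 2.67 and 3.47 CPM in the IRF1shRNA samples. All IRF1shRNA values were above the controls, and the log2 fold change was 0.63 ± 0.12 (adjusted p = 0.000298). By annotation, 23.2% of its exon bases also belong to the readthrough gene URGCP-MRPS24 on the same strand, which was listed at 0 counts in all 6 samples. How reads that fit both genes were assigned is not given in the sources used here, so the level of MRPS24 is uncertain.

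The other small subunit genes called as higher were MRPS33, MRPS28, MRPS35, MRPS7, MRPS22, MRPS18B, MRPS10 and MRPS15, with log2 fold changes from 0.29 for MRPS33 down to 0.11 for MRPS15. MRPS35 had the smallest spread within groups of these, with 64.2, 62.8 and 65 CPM in the controls and 76, 77.4 and 73.4 CPM in the IRF1shRNA samples (log2 fold change 0.24 ± 0.042, adjusted p = 0.000107). MRPS7, the counterpart of bacterial S7, which nucleates folding of the 3′ part of the small subunit RNA in bacteria, was at 47.3, 50 and 50.4 CPM without and 54.7, 60.1 and 56.6 CPM with silencing. Its log2 fold change was 0.21 ± 0.047 (adjusted p = 0.00102). MRPS15 passed narrowly (adjusted p = 0.0463) and its call was lost in 7 of 16 alternatives.

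MRPS11, MRPS2 and MRPS21 were the small subunit genes called as lower. MRPS11, the counterpart of bacterial S11, was at 17.7, 18.1 and 18.3 CPM in the control samples and at 16.5, 13.8 and 15.8 CPM in the IRF1shRNA samples. The groups did not overlap, and the log2 fold change was −0.22 ± 0.071 (adjusted p = 0.0145). Its adjusted p was 0.063 with library size as the sole scaling, 0.0529 without control replicate 2 and 0.0559 without IRF1shRNA replicate 2. MRPS21, the counterpart of bacterial S21, was at 120, 127 and 127 CPM in the controls and at 115, 110 and 110 CPM in the IRF1shRNA samples (log2 fold change −0.16 ± 0.043, adjusted p = 0.00533). MRPS2 overlapped between groups (adjusted p = 0.0396), and its call was lost in 11 of 16 alternatives.

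MRPS12, the counterpart of the decoding centre protein S12, was not called. It was at 53.2, 55.1 and 59.0 CPM in the control and 58.6, 52.1 and 53.2 CPM in the IRF1shRNA samples, with a log2 fold change of −0.029 ± 0.052 (adjusted p = 0.682).

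In the large subunit, MRPL52 had the largest increase of the family. This protein occurs only in mitochondrial ribosomes, and its gene lies at chr14:22829879-22835037 on the plus strand (GRCh38, GENCODE 29). It was at 29.2, 31.4 and 30.5 CPM in the control samples and at 50.1, 48.8 and 47.5 CPM in the IRF1shRNA samples. The groups were far apart, and the mean was 60.8% higher (log2 fold change 0.69 ± 0.05, adjusted p = 4.13e-09). Over all alternatives its log2 fold change stayed between 0.66 and 0.74. As shown above, its promoter held both the GABP and the YY1 letters.

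MRPL10, MRPL48 and MRPL18 followed. MRPL10 anchors the stalk, the flexible arm that recruits translation factors, and was at 18, 20.4 and 21.1 CPM in the controls and at 26, 27.4 and 26.3 CPM in the IRF1shRNA samples. No value overlapped, and the log2 fold change was 0.42 ± 0.067 (adjusted p = 4.16e-05). MRPL48, a protein of the central protuberance with no bacterial counterpart, was at 22.9, 25.6 and 25.9 CPM without and 31.1, 34.5 and 30.7 CPM with silencing (log2 fold change 0.37 ± 0.065, adjusted p = 0.000127). MRPL18, the counterpart of bacterial L18, a binder of the 5S ribosomal RNA, was at 96.3, 99.6 and 100.1 CPM in the controls. In the IRF1shRNA samples it was at 127, 119 and 118 CPM, and the log2 fold change was 0.3 ± 0.044 (adjusted p = 1.9e-05).

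The stalk of the large subunit is built from MRPL10, MRPL11 at its base and MRPL12. MRPL11 was at 43.5, 45.4 and 48.1 CPM in the control and at 57.2, 53.5 and 53.0 CPM in the IRF1shRNA samples, without overlap (log2 fold change 0.26 ± 0.05, adjusted p = 0.000311). MRPL12 was at 10.9, 12.9 and 13.1 CPM and at 12.8, 11.6 and 12.7 CPM, so the groups overlapped (log2 fold change 0.012 ± 0.079, adjusted p = 0.92). Thus 2 of the 3 stalk genes were higher, where 24.1% of all genes tested were, and MRPL12 was not called. The estimate for MRPL12 changed sign when control replicate 1, IRF1shRNA replicate 1 or IRF1shRNA replicate 3 was left out, and after the GC and length correction it passed the test as higher at 0.17 (adjusted p = 0.0294). By annotation, 68.2% of its exon bases are shared with the gene AC139530.2 on the same strand, the largest share in the family.

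In the central protuberance, which contacts the small subunit, 3 of 7 genes were higher (MRPL48, MRPL18 and MRPL55), and all 7 estimates were above 0, with a median log2 fold change of 0.099. There were 0 lower in edgeR, at an unadjusted p under 0.05 and in DESeq2. Of all genes tested, 24.1% were higher and 26.4% lower. Estimates were above 0 for 9376 of the 18851 genes tested and for 44 of the 77 members tested. The estimate for MRPL38, 1 of the 7, was −0.079 without IRF1shRNA replicate 1. The call of MRPL55 was lost in 5 of 16 alternatives, among them DESeq2 (adjusted p = 0.0507). Around the exit of the tunnel, from which the nascent chain reaches the inner membrane, 2 of 6 genes were higher and 0 were lower in edgeR and in DESeq2, with 1 lower (MRPL23) at an unadjusted p under 0.05. One of the 4 not called there was MRPL45, which anchors the ribosome to the inner membrane and had the widest spread within groups of all members tested. MRPL45 was at 6.93, 6.66 and 8.23 CPM in the control samples and at 7.87, 12.6 and 4.64 CPM in the IRF1shRNA samples. The IRF1shRNA values enclosed the controls, and the log2 fold change was 0.16 ± 0.22 (adjusted p = 0.594). It was −0.22 (adjusted p = 0.307) without IRF1shRNA replicate 2 and 0.47 (adjusted p = 0.0175) without IRF1shRNA replicate 3. Its pseudogene MRPL45P2 was between 2.09 and 3.24 CPM, and reads may be split between these copies.

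**Figure D3:**
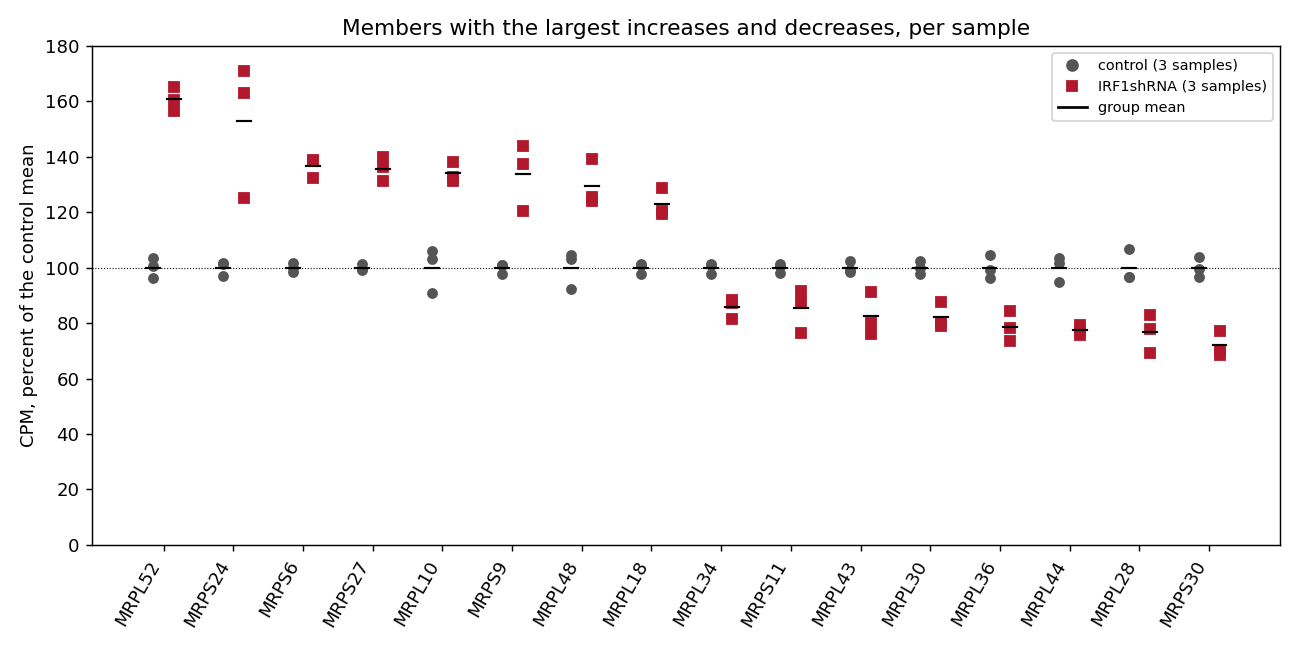
The CPM of each sample is plotted as a percentage of the control mean of that gene (y axis) for the 8 largest increases and the 8 largest decreases among called members whose groups do not overlap, with 3 control samples as circles, 3 IRF1shRNA samples as squares and lines at the group means. The absence of overlap was a condition of the choice, which left out MRPL41, and MRPL52 shows the largest gap between groups.

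The remaining large subunit increases were smaller. MRPL20, MRPL33, MRPL24, MRPL55, MRPL13, MRPL42, MRPL51 and MRPL47 were called, with log2 fold changes from 0.19 for MRPL20 to 0.13 for MRPL47. MRPL33, the counterpart of bacterial L33, was at 59.1, 59.2 and 61.1 CPM in the controls and at 69.4, 69.8 and 65.5 CPM in the IRF1shRNA samples (log2 fold change 0.19 ± 0.043, adjusted p = 0.00132). By annotation, 21.1% of its exon bases are shared with BABAM2 on the same strand. MRPL51, among the highest per length, was at 133, 142 and 140 CPM and at 154, 157 and 144 CPM (log2 fold change 0.13 ± 0.045, adjusted p = 0.0214). Its call was lost in 3 of 16 alternatives, each of which left out 1 sample.

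MRPS30 showed the largest decrease. Despite its symbol it belongs to the large subunit, and its gene lies at chr5:44808925-44820428 on the plus strand. It was at 114, 109 and 106 CPM in the control samples and at 84.9, 75.1 and 77.2 CPM in the IRF1shRNA samples. All IRF1shRNA values were below the controls, and the mean fell by 27.9% (log2 fold change −0.47 ± 0.049, adjusted p = 3.67e-07). Its YY1 letters are shown above.

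MRPL28, MRPL44 and MRPL36 came next among the decreases. MRPL28, the counterpart of bacterial L28, was at 51.5, 51.6 and 56.9 CPM without and at 44.3, 37 and 41.6 CPM with silencing (log2 fold change −0.38 ± 0.061, adjusted p = 5.13e-05). MRPL44, a protein with a fold like that of ribonuclease III, was at 30.7, 32.9 and 33.5 CPM in the controls and at 25.7, 24.9 and 24.5 CPM in the IRF1shRNA samples (log2 fold change −0.37 ± 0.057, adjusted p = 3.09e-05). MRPL36, whose bacterial counterpart is among the smallest ribosomal proteins, was at 46.3, 45.0 and 48.8 CPM and at 36.5, 39.4 and 34.4 CPM. For each of the 3 genes the groups were apart, and for MRPL36 the log2 fold change was −0.35 ± 0.056 (adjusted p = 4.75e-05). After the GC and length correction the log2 fold change was −0.19 (adjusted p = 0.0314) for MRPL36 and −0.24 (adjusted p = 6.95e-05) for MRPL28.

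MRPL30, MRPL43 and MRPL34 fell by smaller amounts. MRPL30, the counterpart of bacterial L30, was at 28.4, 27.1 and 27.7 CPM in the control and at 24.3, 21.9 and 22.2 CPM in the IRF1shRNA samples (log2 fold change −0.28 ± 0.061, adjusted p = 0.000824). MRPL43, which occurs only in mitochondria, was at 34.1, 33.8 and 35.3 CPM and at 31.3, 27.5 and 26.2 CPM (log2 fold change −0.28 ± 0.064, adjusted p = 0.00145). MRPL34, the counterpart of bacterial L34, was at 39.3, 40.7 and 40.7 CPM and at 35.2, 32.7 and 35.6 CPM (log2 fold change −0.22 ± 0.051, adjusted p = 0.00161). No group overlapped in these genes. After the GC and length correction the log2 fold changes were −0.18 (adjusted p = 0.0148) for MRPL43 and −0.13 (adjusted p = 0.0116) for MRPL34. For MRPL43, 36.9% of the exon bases are shared with the neighbouring gene SEMA4G on the other strand.

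MRPL15, the counterpart of bacterial L15 and the member with the highest level per length, was lower too. It was at 123, 128 and 129 CPM in the control samples and at 113, 114 and 105 CPM in the IRF1shRNA samples, a fall of 12.9% without overlap (log2 fold change −0.2 ± 0.045, adjusted p = 0.00115). MRPL1, MRPL35, MRPL41 and MRPL50 were the other large subunit genes called as lower, with log2 fold changes from −0.22 for MRPL41 to −0.12 for MRPL50. MRPL50, whose promoter with the interferon response letters is shown above, was at 51.6, 50.9 and 49.2 CPM without and at 47.4, 48.1 and 44.3 CPM with silencing (adjusted p = 0.0416), and its call was lost in 12 of 16 alternatives.

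MRPL37, MRPL46 and MRPL38 were named for their levels and none was called. MRPL37, which occurs only in mitochondria and was second per length, was at 224, 242 and 243 CPM in the control and at 225, 220 and 226 CPM in the IRF1shRNA samples (log2 fold change −0.08 ± 0.044, adjusted p = 0.142). MRPL46 was at 2.45, 2.88 and 2.96 CPM and at 3.05, 2.85 and 2.96 CPM, with overlap (log2 fold change 0.099 ± 0.11, adjusted p = 0.492). MRPL38 was at 1.53, 1.7 and 1.86 CPM and at 2.19, 1.31 and 1.82 CPM (log2 fold change 0.096 ± 0.16, adjusted p = 0.661), and its estimate was −0.079 without IRF1shRNA replicate 1.

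MRPL32 needs cleavage by the m-AAA protease in the matrix before it joins the ribosome. Its transcript was at 51.4, 53.8 and 52.8 CPM in the control and at 56.2, 55.6 and 54 CPM in the IRF1shRNA samples, a log2 fold change of 0.07 ± 0.042 that did not pass the test (adjusted p = 0.191). MRPL58, a peptidyl-tRNA hydrolase built into the large subunit, gave a log2 fold change of −0.0089 ± 0.063 (adjusted p = 0.923). MRPL32, MRPL58, MRPS12, MRPS7, MRPS35, MRPS21 and MRPL33 were picked for description after their values were seen.

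MRPS18A, MRPS18B and MRPS18C are paralogues that descend from 1 ancestral S18, and the first of them sits in the large subunit. MRPS18B was at 53.4, 54 and 57.6 CPM in the controls and at 65.5, 60.8 and 60.8 CPM in the IRF1shRNA samples, without overlap (log2 fold change 0.18 ± 0.047, adjusted p = 0.00331). MRPS18A was at 17.5, 18.2 and 19 CPM and at 17.7, 15.8 and 17.7 CPM (log2 fold change −0.091 ± 0.067, adjusted p = 0.284), and its estimate was 0.014 after the GC and length correction. MRPS18C was at 14, 13.9 and 14.3 CPM and at 14.5, 15.2 and 14.5 CPM (log2 fold change 0.065 ± 0.064, adjusted p = 0.432). MRPS18B alone of the 3 passed the test, and the difference between the paralogues was not tested. Their levels per length in the controls were 29.1 CPM per kb for MRPS18B, 14.2 for MRPS18A and 2.89 for MRPS18C.

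MRPS36, the member outside the ribosome, was at 24.3, 26.2 and 25.4 CPM in the control samples and at 21.6, 24.9 and 20.9 CPM in the IRF1shRNA samples. The groups overlapped, and the log2 fold change of −0.18 ± 0.069 (adjusted p = 0.0391) lost its call in 10 of 16 alternatives.

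Overlap with other genes leaves the level of several members uncertain, since reads in shared exons cannot be placed without knowing how strand and ambiguity were handled. Of the 78 members, 14 share 20% or more of their exon bases with another gene in GENCODE 29, against 10.4% of 14501 protein-coding genes tested, and 37 share none. On the same strand, 7 of the 78 share that much. Among the 10 members with the lowest level per length, 5 share 20% or more on either strand, including MRPL53 (45.2%, with CCDC142), MRPL38 (41.1%, mostly with AC087289.3), MRPS24 and MRPS28 (35.8%, with AC036214.3). MRPL46, the lowest member tested, shares 11.3%, and MRPL12, with the largest share, was not among the 10. Whether overlap changed the levels was not tested. Without these 14 genes, 21 members were higher and 15 lower of 64, with a median log2 fold change of 0.055. These shares were 32.8% and 23.4%, against 24.1% and 26.4% of all genes tested, whose median was −0.0024. The table also listed 75 pseudogenes of the family, of which 37 had counts, and their counts summed to 0.16% of those of the members.

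**Figure D4:**
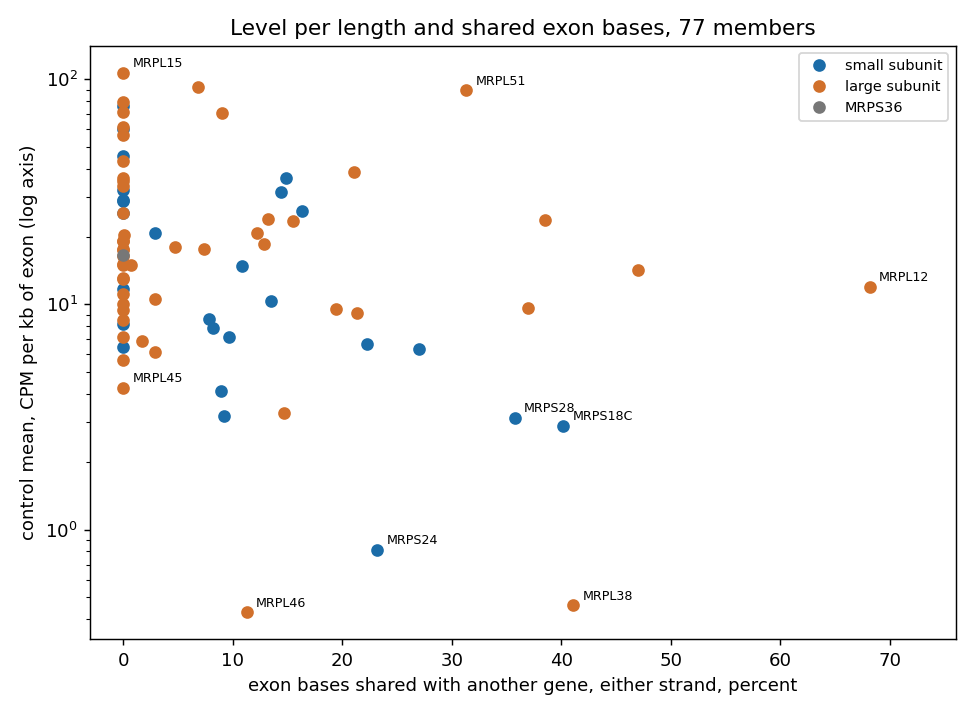
Each point is 1 of 77 members, with the share of its exon bases that also belong to another gene on either strand (x axis, percent) and its control mean in CPM per kb of exon (y axis, log scale), coloured by subunit. MRPL46, MRPL38 and MRPS24 lie lowest, and MRPL12 has the largest share at 68.2%.

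Some MRP genes start back to back with another gene. A divergent protein-coding neighbour with its start within 1000 bases upstream (or 200 bases inside) was found for 19 members. In 1 pair both genes were higher, in 1 both were lower, in 2 they were called in opposite directions, in 3 neither was called, and in the others 1 of the genes was. MRPL46 and MRPS11 are neighbours of each other, so the 19 members form 18 pairs. Outside that pair, the member alone was called in 6 and the neighbour alone in 4. For comparison, 50.5% of all genes tested were called, 24.1% as higher and 26.4% as lower. Whether neighbours moved together more often than other genes was not tested. The pair that rose was MRPL52 and SLC7A7, an amino acid transporter subunit, whose starts lie 59 bases apart. SLC7A7 was at 1.75, 1.97 and 1.74 CPM in the control and at 2.75, 2.67 and 2.67 CPM in the IRF1shRNA samples, without overlap (log2 fold change 0.57 ± 0.12, adjusted p = 0.00048). The pair that fell was MRPL30 and MITD1, a protein of cytokinesis, with 21 bases between the starts. MITD1 was at 16.9, 15.3 and 15.5 CPM and at 12, 11.6 and 12.4 CPM (log2 fold change −0.4 ± 0.069, adjusted p = 8.4e-05).

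Opposite calls occurred at MRPL47 and NDUFB5, a complex I subunit, which start 36 bases apart. NDUFB5 was at 26, 25 and 23.9 CPM in the control and at 22.7, 20.6 and 22.1 CPM in the IRF1shRNA samples (log2 fold change −0.19 ± 0.062, adjusted p = 0.0158), while MRPL47 was higher by 0.13 ± 0.044 (adjusted p = 0.0184). The other pair was MRPL41 and PNPLA7, a lysophospholipase, 665 bases apart, with PNPLA7 higher by 0.96 ± 0.19 (adjusted p = 0.000431). The groups overlapped for MRPL41, and its lower call was lost in 6 of 16 alternatives. MRPL36 fell next to the complex I subunit NDUFS6, which was between 86.1 and 101.7 CPM in all samples (log2 fold change −0.0074 ± 0.058, adjusted p = 0.93). MRPL46 and MRPS11 are both members and start 34 bases apart in opposite directions. MRPS11 was lower and MRPL46 was not called, and differences within pairs were not tested. These pairs were picked after their values were seen.

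Across the promoters, the GABP letters were in 33 of the 85 MRP windows (38.8%), against 10.3% of all 35116 windows and 14.97% of the windows of tested genes. The YY1 letters were in 27 windows (31.8%), against 5.84% of all windows and 6.59% of those of tested genes. NRF1 letters were found in 1 window, that of MRPL17 (1.18%, against 1.239% of all windows and 1.8% of those of tested genes). For comparison, 24.1% of all genes tested were higher and 26.4% lower, and 32.5% and 20.8% of all members. Members with the GABP letters numbered 30, of which 10 were higher, 4 were lower and 15 were not called, and MRPL53 was not tested. Of 24 members with the YY1 letters, 11 were higher, 3 were lower and 10 were not called. Both sets of letters were found for 9 members, among them MRPL52, MRPL47, MRPL51, MRPL20 and MRPS10, which were higher, and MRPL38, MRPS12, MRPS16 and MRPS18A, which were not called. The interferon response letters were in 3 windows (3.53%, against 3.57% of all windows and 2.98% of those of tested genes), at MRPL14, MRPL36 and MRPL50, and MRPL14 was not called. A TATAAA stretch was in 3 windows (3.53%, against 11.5% and 7.13%).

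The factors known for such letters were measured in the same samples. GABPA was at 58.2, 55.9 and 52.9 CPM in the control and at 41.7, 41.8 and 41.9 CPM in the IRF1shRNA samples, well apart (log2 fold change −0.41 ± 0.047, adjusted p = 9.94e-07). GABPB1 fell by 0.35 ± 0.06 on the log2 scale (adjusted p = 8.11e-05). YY1 was at 152, 152 and 148 CPM and at 113, 115 and 114 CPM, and its log2 fold change was −0.4 ± 0.04 (adjusted p = 1.98e-07). NRF1 was between 22.1 and 23.1 CPM and between 19.3 and 21.1 CPM (log2 fold change −0.15 ± 0.061, adjusted p = 0.0544). GABPA, GABPB1, NRF1, TFAM and DAP3 were singled out after their values were seen.

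Transcription factors and coactivators of mitochondrial biogenesis, with the machinery that transcribes mitochondrial DNA, gave 4 higher and 7 lower of 14 genes, with a median log2 fold change of −0.2. These shares were 28.6% and 50%, against 24.1% and 26.4% of all genes tested. The coactivator PPARGC1B was at 31.2, 34.9 and 32.7 CPM in the controls and at 20.6, 22.1 and 22.2 CPM in the IRF1shRNA samples, the largest decrease of this list (log2 fold change −0.61 ± 0.062, adjusted p = 2.54e-07). Its relative PPRC1 went the other way, from 101, 103 and 108 CPM to 124, 125 and 135 CPM (log2 fold change 0.3 ± 0.046, adjusted p = 2.77e-05). PPARGC1A was higher as well, but at levels of 0.147 to 0.211 CPM in the controls and 0.504 to 0.577 CPM in the IRF1shRNA samples (log2 fold change 1.69 ± 0.3, adjusted p = 0.000137). TFAM, which packages mitochondrial DNA and starts its transcription, was lower by a log2 fold change of −0.31 ± 0.045 (adjusted p = 1.73e-05).

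Ribosomal proteins whose symbols fall outside the naming rule numbered 5, with AURKAIP1 lower and 0 higher. There were 0 higher also at an unadjusted p under 0.05 in edgeR and in DESeq2. These shares were 0% higher and 20% lower, against 24.1% and 26.4% of all genes tested. AURKAIP1, a small subunit protein, was at 174, 181 and 195 CPM in the control and at 152, 137 and 139 CPM in the IRF1shRNA samples (log2 fold change −0.36 ± 0.051, adjusted p = 1.23e-05), and its log2 fold change was −0.18 (adjusted p = 0.00202) after the GC and length correction. DAP3, a GTP-binding protein of the small subunit, was between 191 and 214 CPM in all samples and was not called (adjusted p = 0.361). Among the 13 mitochondrial translation factors, 5 were higher and 1 was lower. These shares were 38.5% and 7.7%, against 24.1% and 26.4% of all genes tested. GFM2, which splits the ribosome after termination, was at 36.2, 33.9 and 36.2 CPM and at 48.4, 50.8 and 50.1 CPM (log2 fold change 0.49 ± 0.049, adjusted p = 1.99e-07). The release factors moved apart. MTRF1 was higher by 0.48 ± 0.07 (adjusted p = 1.83e-05) and MTRF1L gave a log2 fold change of −0.32 ± 0.065 (adjusted p = 0.000505).

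Of 23 genes for ribosome assembly and ribosomal RNA modification, 6 were higher and 3 were lower. These shares were 26.1% and 13%, against 24.1% and 26.4% of all genes tested. YBEY, a conserved endonuclease of ribosome biogenesis, was at 10.8, 11 and 12 CPM in the control and at 16.3, 17.3 and 17.1 CPM in the IRF1shRNA samples, without overlap (log2 fold change 0.58 ± 0.068, adjusted p = 1.4e-06). NSUN4, a methyltransferase of the small subunit RNA, was higher by 0.28 ± 0.041 (adjusted p = 1.86e-05). METTL17, an assembly factor of the small subunit, was at 21.9, 22.3 and 22.4 CPM and at 16.4, 16.7 and 14.9 CPM (log2 fold change −0.47 ± 0.064, adjusted p = 8.01e-06). METTL15, which methylates the same RNA, gave −0.19 ± 0.065 on the log2 scale (adjusted p = 0.019), and its call was lost in 5 alternatives, with adjusted p up to 0.0815.

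In the list of mitochondrial chaperones and proteases, 7 of 15 genes were higher and 3 were lower. These shares were 46.7% and 20%, against 24.1% and 26.4% of all genes tested. The subunits of the m-AAA protease that matures MRPL32 moved apart. SPG7 was at 111, 109 and 109 CPM in the control and at 134, 131 and 139 CPM in the IRF1shRNA samples (log2 fold change 0.3 ± 0.041, adjusted p = 9.59e-06). AFG3L2 was at 62.5, 63.8 and 65.5 CPM and at 53.7, 57.7 and 51.8 CPM (log2 fold change −0.24 ± 0.047, adjusted p = 0.000376). The chaperonin HSPD1 was lower, at 820, 804 and 776 CPM and at 619, 691 and 622 CPM (log2 fold change −0.31 ± 0.049, adjusted p = 3.65e-05), and the nucleotide exchange factor GRPEL2 was higher by 0.31 ± 0.042 (adjusted p = 7.13e-06).

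The ribosomal RNAs of the organelle, MT-RNR1 and MT-RNR2, were listed too, in libraries that were made from polyadenylated RNA. MT-RNR1 was at 26.1, 7.97 and 7.92 CPM in the control samples and at 22.9, 0.793 and 31.6 CPM in the IRF1shRNA samples. MT-RNR2 was at 51.8, 11.7 and 13.9 CPM and at 31.1, 1.64 and 41.5 CPM. Both varied many-fold within each group, and IRF1shRNA replicate 2, the library with the fewest counts, was lowest for both. Their log2 fold changes were 0.45 ± 0.6 (adjusted p = 0.57) and −0.016 ± 0.6 (adjusted p = 0.985). Without IRF1shRNA replicate 2 these became 0.98 (adjusted p = 0.0405) and 0.51 (adjusted p = 0.369).

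The strength of the calls differed among the members. Of the 25 higher calls, 18 held in all 16 other fits, and of the 16 lower calls, 10 did. Per sample, the median over the members of the log2 ratio to the control mean was −0.043, 0.0026 and 0.03 in the control samples and 0.072, 0.031 and −0.0062 in the IRF1shRNA samples, so the family median overlapped between groups.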

How the data were processed

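The deposited table holds unnormalized read counts for each gene symbol in 6 samples. Per the labels, TruSeq Stranded mRNA libraries were sequenced, and the submitters' processing notes name CASAVA 1.8.2, STAR 2.7.9a, featureCounts, DESeq2 1.24.0 and the build GRCh38.p7. The annotation release, the strand setting and the treatment of reads that fit more than 1 gene are not given in the sources used here. Among values of 2 to 11 counts, between 72.1% and 75.2% per sample were even, so mates of a pair appear to have been counted separately, and halved counts were tried as an alternative.

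Counts were tested with edgeR 4.0.16 (R 4.3.3), using the quasi-likelihood test with group as the only factor, TMM scaling, a filterByExpr minimum of 10 counts and p-values adjusted by Benjamini-Hochberg over the 18851 genes left. The step was tested on simulated data. SE is the log2 fold change divided by the square root of F. CPM are TMM-scaled. A total of 3 counts was taken as detected (0.0187 to 0.0544 CPM), and this floor covers counting error only. Alternatives were DESeq2 1.42.0, other scalings and filters, a correction for GC content and length (natural splines with 5 degrees of freedom each, for the 18823 genes with values), a replicate block, a threshold of 0.01 and leaving out each sample. Leaving out members with shared exons was added after seeing the data.

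Lengths, positions and exon overlap came from GENCODE 29, promoters from RefSeq (GRCh38.p14). Members and lists were chosen with earlier results of these data known. Named were the 8 largest increases and decreases among called members without overlap, the 3 smallest adjusted p in each direction, the 3 highest and lowest levels per length, the 2 widest spreads, MRPS18A to MRPS18C, MRPS30, MRPS36, the stalk, members not tested, up to 2 called genes in each direction of each companion list, MT-RNR1, MT-RNR2 and IRF1. Other genes are named as chosen later.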

Additional observations from a re-analysis of the deposited data

How the results depend on the processing

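After the GC and length correction, without and with the replicate block, 38 members were higher, 24 of them in the large subunit, and the median log2 fold change of the members was 0.12. The median was 0.099 with upper quartile scaling and 0.11 with library size as the only scaling, where 10 members, 1 of them in the small subunit, were lower. At an adjusted p under 0.01, 1 small subunit gene was lower and 8 large subunit genes were higher. At that threshold 18.5% of all genes tested were higher and 21.8% lower. Leaving out 1 sample gave 18 to 26 members higher and 10 to 18 lower, with 10 to 13 small subunit genes higher and 1 to 4 lower, 8 to 13 large subunit genes higher and 9 to 13 lower, and medians from 0.013 to 0.078. The fewest lower calls (10) came without control replicate 2, the fewest large subunit increases (8) without IRF1shRNA replicate 1, 1 lower small subunit gene without control replicate 2 or IRF1shRNA replicate 2, and the lowest median (0.013) without control replicate 1. The median of all genes was 0.009 without control replicate 1. Between 42.9% and 48.1% of all genes tested were called when 1 sample was left out. The causes were not tested.

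Some estimates changed sign. Leaving out 1 sample, MRPL38 ran from −0.079 (without IRF1shRNA replicate 1) to 0.24, MRPL45 from −0.22 (without IRF1shRNA replicate 2) to 0.47, MRPL12 from −0.069 to 0.060, MT-RNR1 from −0.15 to 1.26 and MT-RNR2 from −0.58 to 0.99. The estimate for MRPS18A was 0.014 and 0.012 after the GC and length correction without and with the block. MRPL12 was −0.069, −0.013 and −0.0098 without control replicate 1, IRF1shRNA replicate 1 and IRF1shRNA replicate 3. MT-RNR1 was −0.15 without IRF1shRNA replicate 3. MT-RNR2 was 0.028 with upper quartile scaling, 0.034 by library size, 0.0094 with a filter of 1 CPM in 3 samples, 0.034 on halved counts, 0.071 after the GC and length correction, 0.99 without control replicate 1 and 0.51 without IRF1shRNA replicate 2. For MT-RNR1, the fit with no filter gave 0.46 (adjusted p = 1.93e-09), against an adjusted p of 0.57 with the filter.

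Whether the replicate numbers pair the samples is not stated in the sources used here. The deviations of samples with the same number from their group means correlated at 0.014, 0.025 and −0.0072 over all genes. Over the members these correlations were −0.23, −0.15 and −0.051. Such values show no shared effect of the number but cannot tell how the cultures were set up. With the replicate block, 24 members were higher and 17 lower, with a median of 0.054. Over the values that answer a comparison, 120 alternatives kept the result and 17 moved it. These refits reuse the same samples, so the tally does not measure how firm the results are. The members near 2 CPM had the fewest counts after MRPL53, and why MRPL53 had almost none was not tested. Multimapped or ambiguous reads cannot be told from unique ones in these data.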
